A study of Rattus norvegicus with 24 samples.

Results

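The genes described here are the nested reference genes of the rat frontal cortex tables: genes with an Ensembl rat identifier whose start and end lie inside another such gene on the opposite strand, and inside no gene on their own strand. Of the 32883 reference genes listed, 1621 were nested in this way, with the mitochondrial genome left out. A further 64 genes lay inside an opposite-strand gene but also inside a same-strand gene and were not counted. The positions come from the table of library 49, and the table of library 57 gave 1621 nested genes as well, of which 1620 were shared. RNA-Seq of the frontal cortex was compared between 24 adult male Sprague-Dawley rats. It was made 24 hours after exposure by inhalation to an aerosol of tungsten particles, with unexposed rats as Control. All sample titles also carry the word Repeat, which is given here as labelled. The Control group (8 rats, libraries 49 to 56) is labelled as tungsten at 0 mg/m3, the Low group (8 rats, libraries 57 to 64) as 5 mg/m3 and the High group (8 rats, libraries 65 to 72) as 80 mg/m3. Each rat gave 1 library, so that p-values measure the spread between rats as the labels name them. All rats share strain, sex and tissue, and the labels name no genetic change.

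A nested gene shares its stretch of chromosome with a host but is read from the other DNA strand, usually from within an intron of the host, so that the 2 transcripts run towards each other. In the nervous system the best known case is Nf1, the gene of the Ras regulator neurofibromin, which holds Omg, the oligodendrocyte myelin glycoprotein, together with Evi2a and Evi2b. The synapsin genes hold the Timp genes, which encode inhibitors of matrix metalloproteinases. Many other nested entries are microRNA genes, copies of small nuclear RNAs such as U6, and ribosomal 5S_rRNA copies. Where reads of a nested gene and of its host fall on the same bases, sequencing can only separate them if reads keep their strand. The libraries were made with a stranded mRNA kit, and the sources used here do not give how the alignment and the counting used the strand. Without strand, reads of the 2 genes that fall on the same bases cannot be told apart.

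Of 26 microRNA genes among the nested genes, 23 have a hairpin in RefSeq (build GRCr8), and 21 of those hairpins are as long as the listed gene. The mature sequences of 3 of them are printed because their genes carried the contrasting patterns described further on: Mir3546 inside Myh6, the gene of cardiac myosin heavy chain alpha; Mir3065 inside Aatk, the gene of a neuronal kinase; and Mir126a inside Egfl7, the gene of a factor secreted by endothelial cells. Capitals mark the seed, bases 2 to 8, and the 4 seeds all differ.
rno-miR-3546: aUAACCCGggccaaaagcucac
rno-miR-3065-5p: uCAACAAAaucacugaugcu
rno-miR-3065-3p: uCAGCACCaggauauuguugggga
rno-miR-126b, the product RefSeq gives for Mir126a: uACCAAAAguaauaaugugcug

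The whole hairpins of Mir3546 (chr15:32395536-32395651, plus strand) and Mir3065 (chr10:105796325-105796427, plus strand) are shown because the coverage in these tables was measured over the hairpin gene and not over the mature microRNA. Capitals mark the mature microRNAs.
Mir3546 hairpin: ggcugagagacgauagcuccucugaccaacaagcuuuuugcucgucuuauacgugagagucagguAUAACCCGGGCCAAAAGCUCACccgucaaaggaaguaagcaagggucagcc
Mir3065 hairpin: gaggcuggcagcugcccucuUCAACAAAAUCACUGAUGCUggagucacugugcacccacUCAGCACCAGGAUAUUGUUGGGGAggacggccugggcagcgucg

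Promoters are shown for 3 protein-coding nested genes, from 250 bases before to 50 bases after the RefSeq start: Omg (chr10:64962001-64962300, minus strand) and Timp3 (chr7:19459509-19459808, minus strand), which are known nested genes, and Pigc (chr13:76876815-76877114, plus strand), whose level was lower in all Low rats. Capitals mark matches to TATAAA or GGGCGG on either strand, and these letters do not overlap each other.
Omg promoter: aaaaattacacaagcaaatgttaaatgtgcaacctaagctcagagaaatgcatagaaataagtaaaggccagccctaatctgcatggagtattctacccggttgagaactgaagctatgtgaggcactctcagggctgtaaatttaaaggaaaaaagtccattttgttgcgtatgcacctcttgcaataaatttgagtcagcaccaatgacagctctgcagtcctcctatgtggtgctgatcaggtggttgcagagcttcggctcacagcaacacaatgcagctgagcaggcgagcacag
Timp3 promoter: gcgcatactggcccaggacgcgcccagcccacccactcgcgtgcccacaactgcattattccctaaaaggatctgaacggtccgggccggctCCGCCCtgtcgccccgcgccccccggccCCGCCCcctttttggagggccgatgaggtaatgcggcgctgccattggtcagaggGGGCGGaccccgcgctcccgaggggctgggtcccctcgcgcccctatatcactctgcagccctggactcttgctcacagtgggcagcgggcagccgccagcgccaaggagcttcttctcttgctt
Pigc promoter: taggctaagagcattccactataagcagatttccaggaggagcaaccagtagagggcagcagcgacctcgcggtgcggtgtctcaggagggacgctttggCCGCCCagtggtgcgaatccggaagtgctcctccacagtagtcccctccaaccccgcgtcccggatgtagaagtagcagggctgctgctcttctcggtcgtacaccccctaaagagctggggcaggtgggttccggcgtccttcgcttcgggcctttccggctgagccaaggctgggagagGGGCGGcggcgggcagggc
The Omg window held 4 CpG dinucleotides and no match, the Timp3 window held 26 CpG and 3 GGGCGG matches, and the Pigc window held 21 CpG and 2 GGGCGG matches. Of all 33469 RefSeq promoters of this length, 14.2% held TATAAA and 33.1% held GGGCGG. Of the 219 promoters of nested genes that could be matched by symbol, 17.4% held TATAAA and 38.8% held GGGCGG, with a median of 8 CpG against 7 over all promoters. These are matches of letters and not binding sites.

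The nested genes were mostly short. Their median length was 306 bases, against 5478 bases for all reference genes, with a range from 29 to 653418 bases, and 703 were under 200 bases. They lay in 1326 hosts with a median length of 92703 bases and took up a median of 0.534% of the host. Only 21 covered over 50% of their host. Most hosts, 1125 of them, held 1 nested gene. The hosts with the most nested genes were LOC103689965 and Luzp2, a leucine zipper gene, with 8 each, and Cenpp, a centromere protein gene, with 7. Nested genes were spread evenly along their hosts: 527, 554 and 540 of them lay in the 3 equal parts of the host counted from its 5′ end, and 815 were on the plus and 806 on the minus strand.

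**Figure D1:**
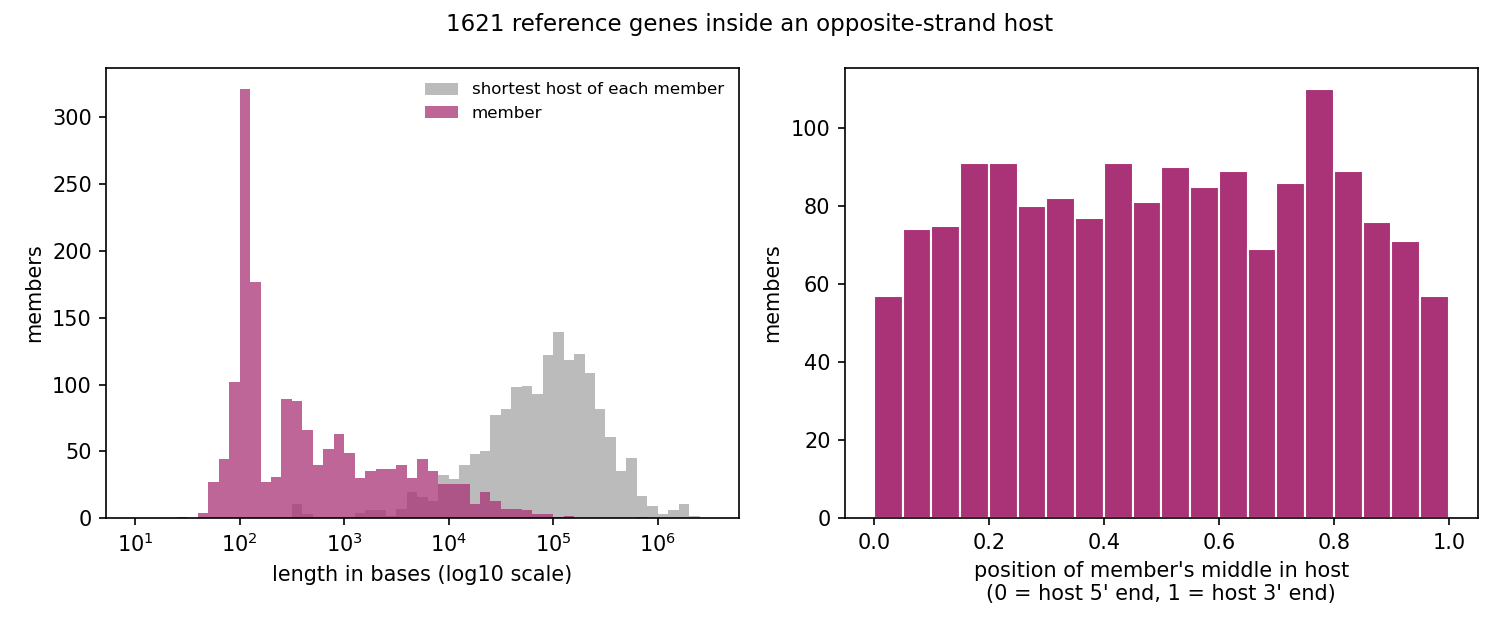
Lengths and positions of the 1621 nested genes: the left panel counts nested genes (purple) and the shortest host of each (grey) by length in bases on a log10 scale, and the right panel counts nested genes by the position of their middle in the host, from 0 at the 5′ end to 1 at the 3′ end. The nested genes (median 306 bases) are far shorter than their hosts (median 92703 bases), and the positions are spread evenly with a median of 0.507.

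By name, the nested genes fell into a few kinds. There were 826 clone names (starting with AABR or AC), 354 names of small structural RNAs (U6 162 times, 7SK 65 times, 5S_rRNA 54 times, U2 14 times and U7 13 times), 291 other gene symbols, 83 LOC or RGD names, 41 genes with no name and 26 microRNA genes. Copies with the same name or near-identical sequence can share reads, and their values are uncertain. The nesting was also looked up by symbol in RefSeq GRCr8, which is another build than that of the tables. Of 232 pairs of nested gene and host found by symbol, 220 lay on the same chromosome and in 136 (58.6%) the nested gene lay inside the host there too. All 76 of these pairs with known strands were on opposite strands. The pairs that were not inside each other in RefSeq include Fth1 and Best1, Rpl23a and Tlcd1, Rpl10a and Tead3, and Ckmt1, Pdia3 and Serf2 with Ppip5k1, while RefSeq places Rpl37 and Vps53 on different chromosomes.

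Coverage, the mean read depth per base, was divided by its sum over the reference genes of the library and multiplied by 1000000. This scaled coverage is a level per base, so gene length is divided out. Levels of short genes rest on few bases, and their comparison with long genes is uncertain. The summed coverage of the reference genes was between 1.64 and 3.07, in units of 1000000, per library, and the tables hold no read counts, so the number of reads behind a value is unknown. Of the 1621 nested genes, 415 (25.6%) had a mean scaled coverage of at least 1 over the 24 libraries and were tested, against 47.6% of all reference genes. A further 286 (17.6%) were listed at 0 in every library, against 20.2% of all reference genes, and 920 lay between. By kind, the tested genes were 181 of the 291 other symbols, 47 of the 83 LOC or RGD names, 153 of the 826 clone names, 27 of the 354 small structural RNA names, 5 of the 41 without a name and 2 of the 26 microRNA genes. The 2 microRNA genes were Mir3546 and Mir6318, which lies in Elmo3. The imprinted cluster of Mir127, Mir136, Mir431 and Mir433 was listed inside AABR07065531.3, and Mir127, Mir431 and Mir433 were at 0 in every library.

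The libraries themselves did not all look alike, which bears on every comparison below. Libraries 56 to 62, that is 1 Control and 6 Low rats, stood apart from the other 17 in how they covered nested genes. The Low libraries 63 and 64 are counted with the other 17. They listed 1017 and 1024 nested genes at 0, where the Control and High libraries among the 17 listed 885 to 985. The labels name no batch for them. The Low tables also list no loci assembled by StringTie (0 per table), whereas Control tables list 46334 to 159573 and those of High list 50235 to 64010, so that a change seen in Low alone cannot be told apart from this difference in how the tables were made. The labelled tissue was checked by marker genes. All 6 markers of cortical excitatory neurons had a mean of at least 1, and their summed level was 760 to 1117 over the Control rats, 637 to 1080 over the Low rats and 369 to 1055 over the High rats. The 4 striatal markers summed to 303 to 645, 235 to 486 and 170 to 1007 in the same order. The 4 oligodendrocyte markers summed to 3453 to 4979, 3662 to 7166 and 2163 to 5555. The 4 choroid plexus markers summed to 3.73 to 71.8, 3.53 to 15.3 and 4.03 to 29.3, and Folr1 and Kl among them had means under 1 (0.789 and 0.328). For blood, 2 of 3 markers were found and summed to 151 to 350, 96.0 to 289 and 114 to 407. In bulk tissue, fewer cells of a type and less RNA per cell cannot be told apart.

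The known nested genes were expressed at very different levels. Omg had the highest level of them, with scaled coverage of 138 to 181 (median 156) for the Control rats, 136 to 215 (median 187) for the Low rats and 128 to 170 (median 147) for the High rats. The 3 groups overlapped, with most Low rats above most High rats. Its Low against High difference was 0.30 on the log2 scale (SE 0.08, limma adjusted p = 0.0118), and its Low against Control difference was 0.24 (SE 0.08, limma adjusted p = 0.0673). The Low against High call was lost with libraries 56 to 62 as a covariate (0.36, limma adjusted p = 0.103), and also under median-of-ratios scaling or with no scaling. Its host Nf1 had a median of 25.7 for the Control, 28.004 for the Low and 16.8 for the High rats, with a Low against High difference of 0.52 (SE 0.23) that was not called (limma adjusted p = 0.126). The oligodendrocyte markers, which sum to the levels given above, were not tested for a part in the Omg values.

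Within the same host, Evi2a lay between 32.7 and 71.5 over all rats, with group medians of 52.3, 53.7 and 53.3 from Control to High. Evi2b, a transmembrane protein gene of blood cells, lay between 0.854 and 3.22, with medians of 2.27, 2.53 and 2.28. All groups overlapped for both genes, and neither passed the test in any comparison. On the log2 scale Omg stood 2.87 above its host (mean over libraries, SD 0.50), Evi2a 1.24 above (SD 0.62) and Evi2b was at -2.81 (SD 0.57).

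The Timp genes differed just as widely from the synapsin genes around them. Timp3 had medians of 49.4, 44.4 and 46.0 in Control, Low and High and stood 1.997 above Syn3 on the log2 scale (SD 0.41). Timp4 had medians of 11.7, 9.89 and 12.9 and stood at -3.78 relative to Syn2 (SD 0.48). Timp1 had medians of 4.84, 3.82 and 4.36 and stood at -6.27 relative to Syn1 (SD 0.57). No Timp gene passed the test in any comparison, and all groups overlapped. Timp1 reached 11.2 in Control library 56 and 8.13 in Low library 59, above all other libraries, of which the highest was 6.79.

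Lrrtm2, which encodes a postsynaptic leucine-rich repeat protein, lay inside Ctnna1, the gene of alpha-catenin, with 13.0 to 31.6 (median 26.1) for the Control rats, 20.2 to 35.2 (median 31.3) for the Low rats and 20.6 to 27.1 (median 22.7) for the High rats. Its Low against High difference of 0.34 (SE 0.14) did not pass the test (limma adjusted p = 0.0998). Lpar6, a lysophosphatidic acid receptor gene inside the retinoblastoma gene Rb1, had medians of 4.15, 4.08 and 4.36 and did not pass the test in any comparison. Lrrtm3, Gpr21 and Gpr52 are listed but were not nested by the rule used here, and the name Lrrtm1 is not listed.

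**Figure D2:**
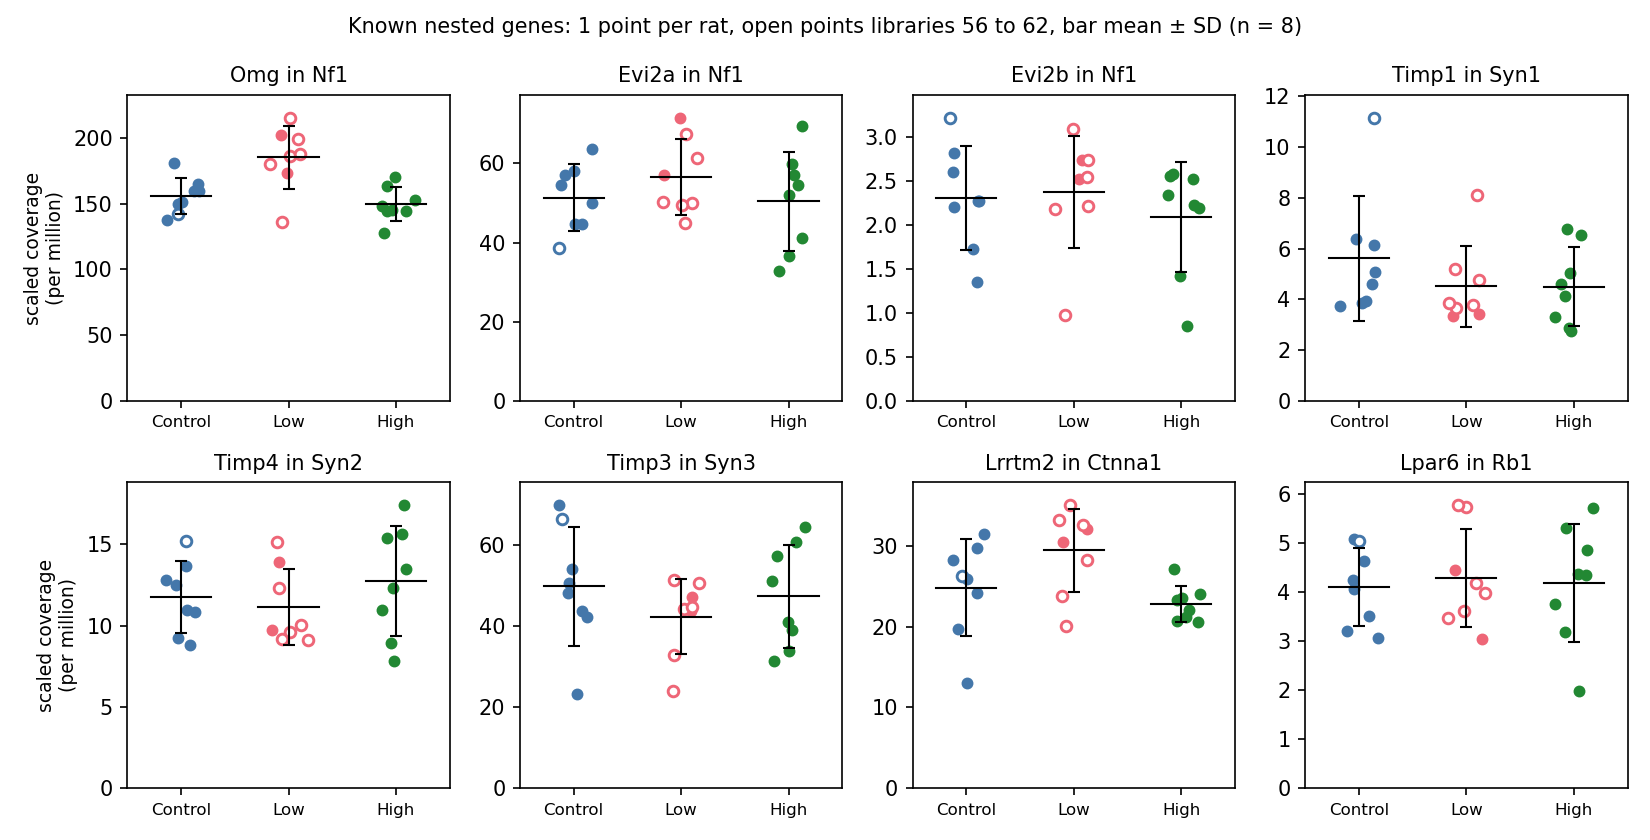
Scaled coverage (per 1000000) of the 8 known nested genes, 1 point per rat, in Control, Low and High, with bars for the mean and SD (n = 8 each) and open points for libraries 56 to 62. The groups overlap in every panel, and Omg ranges from 128 to 215 over all rats.

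The 12 nested genes with a symbol and the highest level were led by Fth1. Fth1, the ferritin heavy chain, had medians of 1560.1, 1781 and 1602 in the Control, Low and High groups. It was followed by Rpl23a (medians 509, 569 and 521) and Rpl37 (438, 467 and 480), both ribosomal protein genes with many processed copies in the genome whose values are uncertain. Pea15, an astrocyte phosphoprotein gene, had medians of 348, 379 and 365. Cox7a2l2, named as a relative of a cytochrome c oxidase subunit, had medians of 321, 338 and 328. The other 7 of the 12 highest, Tma7, Nap1l5, Atp5md, Serf2, Pdia3, Ckmt1 and Rpl10a, had group medians between 202 and 308. None of the 12 passed the test in any of the 3 comparisons.

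Nested genes and hosts were then compared in pairs. In 334 pairs both had a mean scaled coverage of at least 1. The log2 ratio of nested gene to host, each with 1 added, had a median of -1.03 over the pairs, with quartiles of -3.08 and 0.63 and a range from -8.68 to 7.28. The nested gene was the higher in 116 pairs and the host in 218, and 90 pairs were within 1 of each other on the log2 scale. The highest ratios were those of Cox7a2l2 in LOC100363289 (7.28), Tma7 in Ccdc51 (6.44) and Rpl23a in Tlcd1 (5.93). The lowest were those of the unnamed gene ENSRNOG00000049599 in Dnm1, the gene of neuronal dynamin (-8.68), AABR07054460.1 in the non-coding host gene Snhg11 (-7.38) and Fndc9 in Cyfip2 (-7.15). ENSRNOG00000049599 had 0.657 to 6.98 in libraries 56 to 62 and was listed at 0 in all others. It entered the pairs only through libraries 56 to 62, and its mean ratio rests mostly on values of 0.

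**Figure D3:**
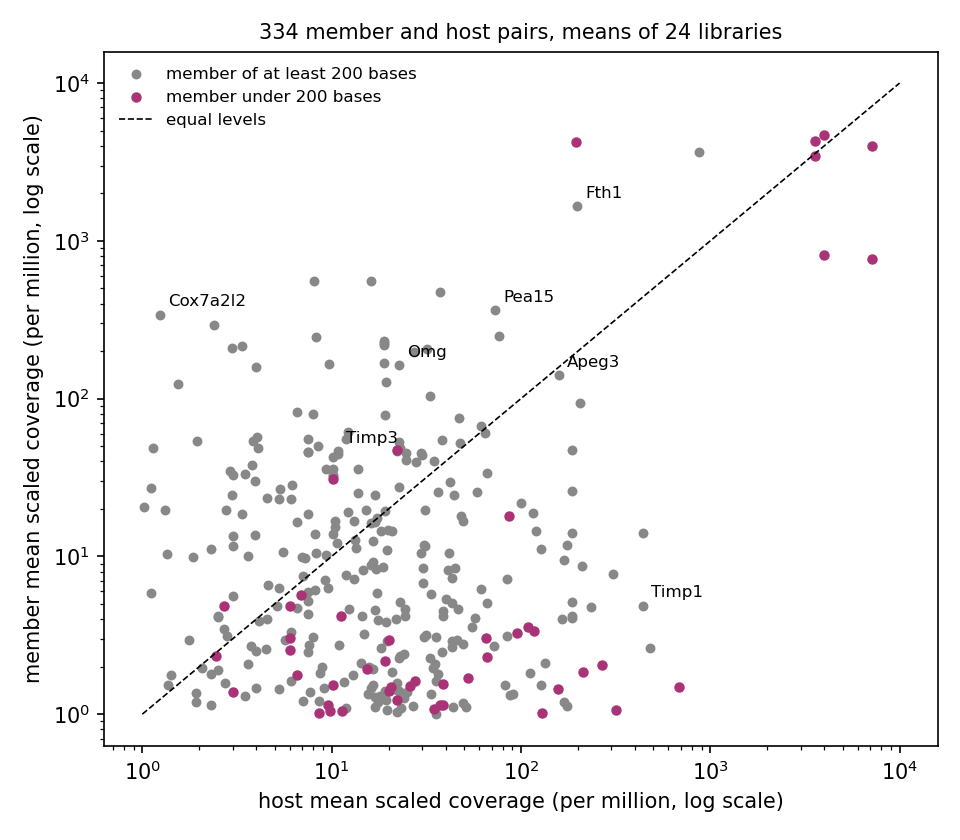
Mean scaled coverage (per 1000000, log scale on both axes) of the 334 nested genes against that of their shortest host, over 24 libraries, with nested genes under 200 bases in purple and a dashed line of equal levels. The host is the higher in most pairs, and the ratio spans from -8.68 to 7.28 on the log2 scale. The lowest ratio is that of a gene listed at 0 in all libraries other than 56 to 62.

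Per library, the median log2 ratio over the 334 pairs was -0.92 ± 0.17 (SD, n = 8) for Control, -1.16 ± 0.07 (SD, n = 8) for Low and -0.87 ± 0.08 (SD, n = 8) for High. Low was lower than Control by a difference of -0.24, larger than the pooled SD of 0.13 between rats, while High differed from Control by 0.05, less than it. Among pairs with a mean of at least 5, the Low minus Control difference was -0.0728, less than that SD. Libraries 56 to 62 had a median of -1.17 and the other 17 a median of -0.87, and the Low libraries 63 and 64 lay between -1.15 and -1.08. No test was run on this score, since the pairs were chosen.

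Over the 24 libraries, the levels of nested gene and host were only weakly correlated. The median Pearson correlation on log2 values was 0.18 over the 334 pairs, with 228 positive and 106 negative, against -0.02 over 521 pairs of genes nested in same-strand hosts. Pairs share libraries, depth and scaling, so these values are a description. Under median-of-ratios scaling the median was 0.04. The highest correlations were those of Apeg3 and Peg3, a paternally expressed imprinted gene (0.97), of Fth1 and Best1 (0.94) and of AABR07020999.1 and Nav1 (0.90). The Apeg3 and Peg3 levels were also alike, with medians of 139 and 157 in Control, 156 and 172 in Low, and 127 and 134 in High. Whether reads of nested gene and host were kept apart in these pairs was not tested. The lowest correlations were those of AABR07015067.2 and AABR07015067.1 (-0.94), Mir3546 and Myh6 (-0.79) and AC115371.1 and Myh6 (-0.72). As given further on, these nested genes were far lower in libraries 56 to 62 than in the others, and their hosts mostly higher. The values therefore follow a split between these sets of libraries and do not describe a gradual relation between rats.

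The next question was which nested genes differed between the exposure groups. Each difference was tested on log2(scaled coverage + 1) with limma over all 15644 reference genes with a mean of at least 1, and a gene was called where the Benjamini-Hochberg adjusted p over all of them was under 0.05. All 3 comparisons share samples. In High against Control no nested gene was called, as no reference gene was (0% of 15644). At an unadjusted p under 0.05, limma gave 9 of the 415 nested genes (2.17%) and 330 of all 15644 genes (2.11%). For the nested genes the exact Wilcoxon rank-sum test gave 14 unadjusted and none adjusted. Its share over all genes is not given, so the 14 cannot be read as a result about nested genes.

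In Low against Control 56 of the 415 tested nested genes were called. Of these 19 (4.58%) were higher and 37 (8.92%) lower in Low, beside 1.23% higher and 4.88% lower among all tested genes. In Low against High 92 were called, 47 (11.3%) higher and 45 (10.8%) lower, beside 5.3% higher and 6.39% lower among all tested genes. The filter on low values used the mean over all 24 libraries. Several genes called higher, such as the U4 copy ENSRNOG00000061167 (0 to 0.496 outside libraries 56 to 62), passed it only through those libraries. Most of those libraries are Low, so the shares called higher follow in part from the filter and are a description. The median difference over the 415 was 0.07 in Low against Control and 0.09 in Low against High, beside 0.06 and 0.09 over all genes. Genes nested in same-strand hosts had another make-up: of 584 tested, 5 were higher and 221 lower in Low against Control. Of the 56 called in Low against Control, 55 were also called in Low against High, which is 98.2% of the former and 59.8% of the latter, and the 2 comparisons share the Low rats.

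The split between higher and lower depended on the scaling. Median-of-ratios scaling gave 18 nested genes higher and 39 lower in Low against Control, where 0.985% of all genes tested were higher and 5.96% lower. In Low against High it gave 29 higher and 51 lower, beside 2.37% and 8.23% of all genes. The FPKM column gave 221 higher and 21 lower in Low against Control, but there 86.5% of all 13816 genes tested were higher and 3.22% lower, and their median was shifted by 0.53 on the log2 scale. In Low against High it gave 224 higher and 24 lower, beside 86.2% and 3.63% of all genes and a shift of 0.52.

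The calls depended on libraries 56 to 62. With these libraries as a covariate, 20 nested genes were called in Low against Control, none higher and all 20 lower, beside 0.0895% higher and 2.22% lower among all tested genes, and 18 of the 20 were among the 56. In that fit Low and Control are compared within libraries 56 to 62, where library 56 is the only Control, and within the rest, where libraries 63 and 64 are the only Low ones. Without libraries 56 to 62, which leaves 2 Low rats, 19 were called, and 15 of them were among the 56. In the same fit 2.2% of all genes were called, in either direction. In Low against High, 19 nested genes were called with the covariate and 20 without the libraries, beside 2.26% of all genes in each of these fits.

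The hosts of the called genes were looked up in the same fit. A host was counted once for each of its nested genes. Of the 56 genes called in Low against Control, 49 had a tested host. For 2 of these 49 (4.08%) the host was called, beside 6.11% of all tested genes in either direction. Both hosts were called in the same direction as the nested gene, namely Bicral around AABR07066792.1 (-0.62, limma adjusted p = 0.00101) and Kmt2e, a histone methyltransferase family gene, around a 7SK copy (0.22, limma adjusted p = 0.0368). Of the 92 genes called in Low against High, 83 had a tested host. For 12 of these 83 (14.5%) the host was called, 4 in the same and 8 in the opposite direction, beside 11.7% of all tested genes. Myh6 is counted here for both Mir3546 and AC115371.1. These shares were not tested against each other.

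**Figure D4:**
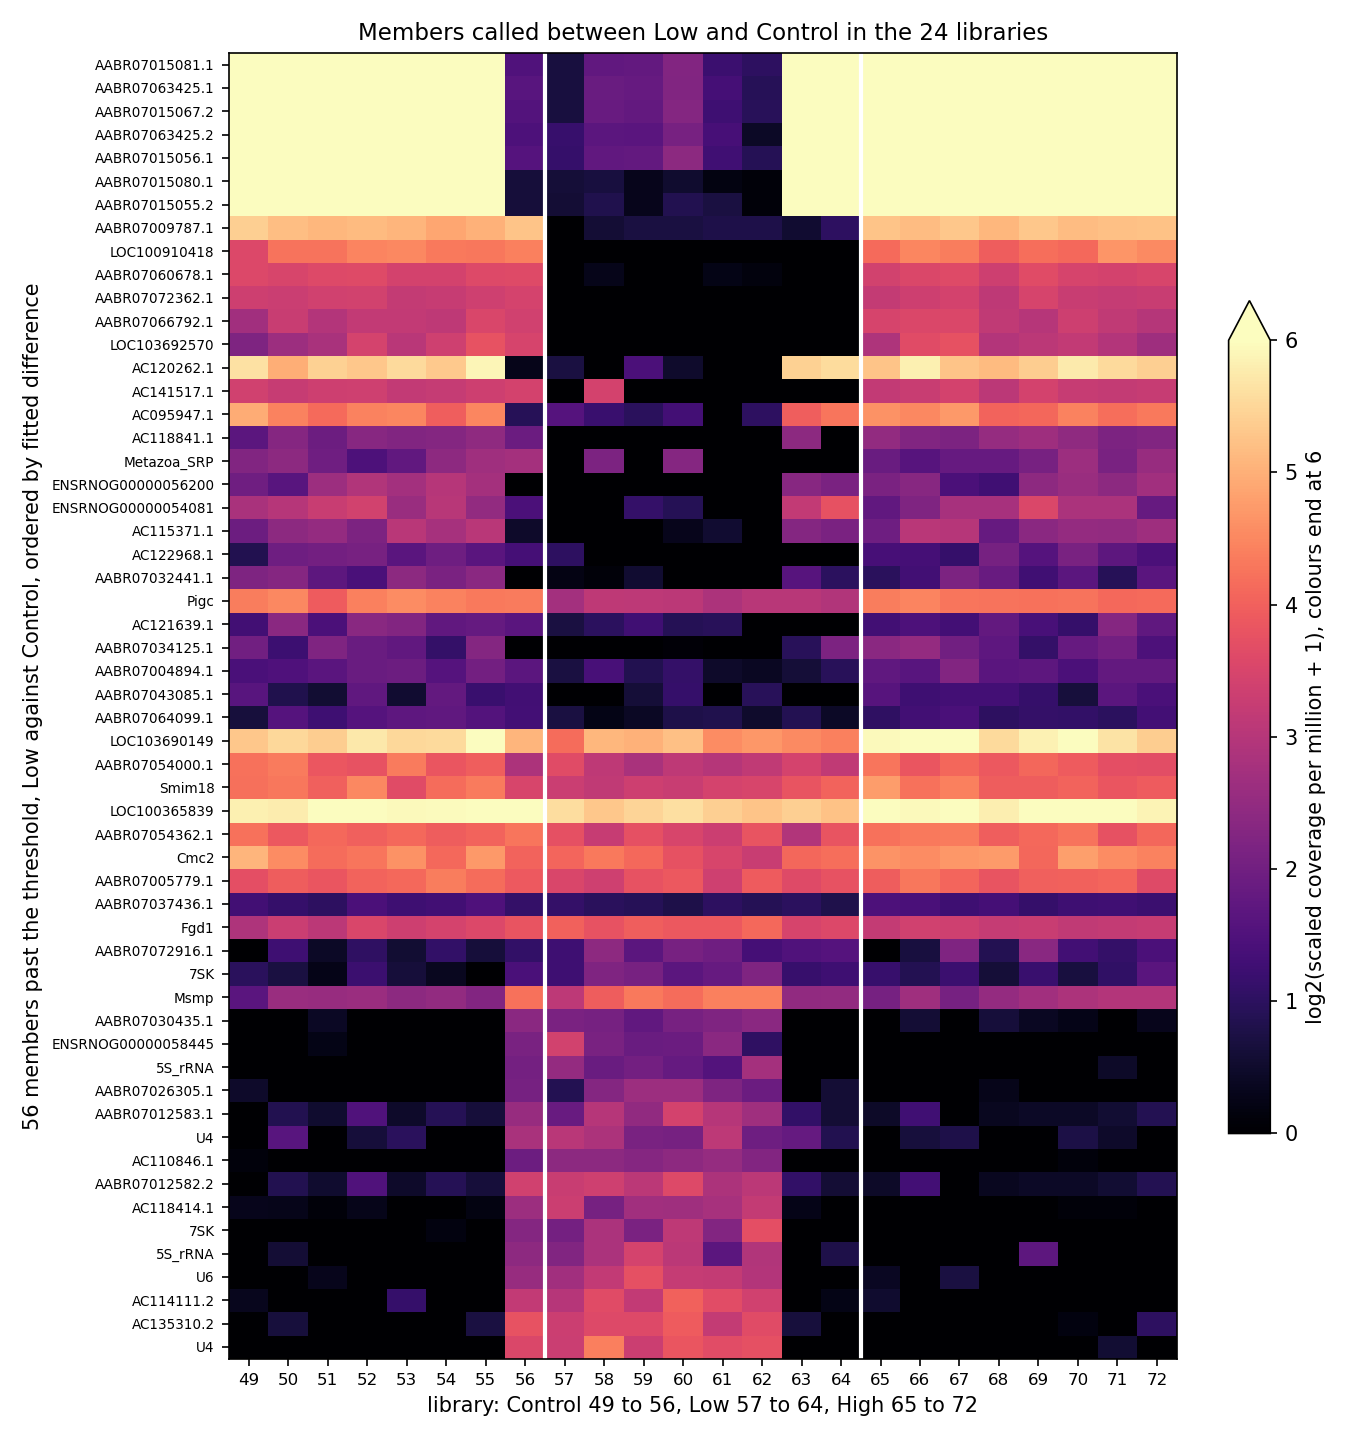
The 56 nested genes called in Low against Control (rows, ordered by fitted difference) in the 24 libraries (columns, Control 49 to 56, Low 57 to 64, High 65 to 72), coloured by log2(scaled coverage per 1000000 + 1) up to 6. The 7 loci at the top are dark only in libraries 56 to 62, the block below them is dark in all Low libraries, and the rows at the bottom are bright only in libraries 56 to 62.

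There were 3 patterns of levels that held 16, 15 and 9 of the 56 genes called in Low against Control. They were chosen after the values were seen, so they are described by counts with no test. In the first, all 7 libraries from 56 to 62 lay above all 17 others. This held for 61 of the 1621 nested genes (3.76%), beside 0.505% of all reference genes, 0.331% of the 1813 genes nested in same-strand hosts and 0.296% of the 29412 genes in no host. These 61 genes lay in 61 different hosts on 15 chromosomes, 29 on the plus and 32 on the minus strand. They were short, with a median length of 116 bases and 47 under 200 bases. Their median level was 3.09 in libraries 56 to 62 and 0 in the others, and 26 were listed at 0 in all 17 others. By kind they were 33 clone names, 19 small structural RNA names (14 of them U6), 4 microRNA genes, 3 genes without a name and 2 other symbols.

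Most of their hosts were well expressed on average over the libraries. The median host level was 31.4, beside 9.53 over the hosts of all nested genes, and 56 of the 61 hosts were at 10 or more, beside 792 of 1621 (48.9%). The median log2 difference of the hosts between libraries 56 to 62 and the others was 0.06, and 60 of 61 hosts were within 0.5. The nested genes reached a median of 9.52% of their host's level in libraries 56 to 62.

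Single genes show the pattern clearly. The U4 copy ENSRNOG00000061167, a spliceosomal small nuclear RNA gene inside the neuronal RNA-binding protein gene Elavl3, had 8.84 to 19.9 in libraries 56 to 62 and 0 to 0.496 in the others, with no overlap. By group it had 0 to 10.7 (median 0) over Control rats, 0 to 19.9 (median 10.3) over Low rats and 0 to 0.496 (median 0) over High rats, and the highest Control value was that of library 56. Its fitted log2 difference between Low and Control was 2.34 (SE 0.59, limma adjusted p = 0.0162), and 0.05 with the covariate (limma adjusted p = 0.925). Elavl3 itself had medians of 105, 113 and 104 in Control, Low and High.

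AC135310.2, a gene of 79 bases inside the neuronal adhesion gene Icam5, had 8.19 to 14.3 in libraries 56 to 62 and 0 to 1.02 in the others. AC114111.2 inside the lipid kinase gene Pip4k2c had 7.07 to 15.1 against 0 to 1.19. The U6 copy ENSRNOG00000059821 inside the chromatin remodelling gene Smarca4 had 4.89 to 12.4 against 0 to 0.647. For all 3 the groups Low and Control overlapped, and the log2 differences of 2.10, 2.06 and 2.02 that limma called (adjusted p = 0.022, 0.0193 and 0.0105) were 0.00, 0.06 and 0.19 with the covariate, none of them called. AC118414.1 inside the splicing factor gene Rbm39 had 3.24 to 8.89 against 0 to 0.247. The 5S_rRNA copy ENSRNOG00000044610 inside Arl8a came close to the pattern, with 2.18 to 10.03 in libraries 56 to 62 and up to 2.26 in the others.

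The 4 microRNA genes of this pattern were Mir126a in Egfl7, Mir3065 in Aatk, Mir3557 in Ppargc1b and Mir6334 in Tp53inp2. Mir3065, whose hairpin is printed above, had 0.632 to 3.89 in libraries 56 to 62 and was listed at 0 in all 17 others. Mir126a had 0.764 to 3.31 and was listed at 0 in all 17 others as well. Their hosts Aatk and Egfl7 had medians of 86.5 and 16.8 in libraries 56 to 62 and of 89.9 and 19.7 in the others, with ranges that overlapped. None of the 4 had a mean of at least 1, so they were not tested.

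Msmp and Fgd1 were the 2 other symbols of this pattern and were longer, at 1051 and 9369 bases. Msmp, the gene of a secreted microseminoprotein inside Rgp1, had 7.56 to 20.4 in libraries 56 to 62 and 2.16 to 6.85 in the others. Fgd1, the gene of an exchange factor for Cdc42 inside Tsr2, had 12.7 to 16.2 against 6.44 to 10.96. Both were called in Low against Control (1.06, SE 0.32, limma adjusted p = 0.0475, and 0.47, SE 0.11, limma adjusted p = 0.00666), and neither was called with the covariate (0.01 and 0.19, limma adjusted p = 0.992 and 0.615). The copies AC110367.1 in Faah and AABR07049722.1 in Faahl had the same range of 1.34 to 5.52 in libraries 56 to 62, and near-identical copies can share reads.

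Detection of short nested genes followed the level of the host in libraries 56 to 62. Of the 378 nested genes under 200 bases with a host level of at least 10, 35.2% to 63.8% (median 46.3%) were above 0 in libraries 56 to 62, and 9.26% to 14.8% (median 11.6%) in the others. Of the 325 with a lower host level, 14.5% to 26.5% (median 18.8%) were above 0 in libraries 56 to 62 and 8.92% to 13.5% (median 10.5%) in the others. Genes under 200 bases nested in same-strand hosts with a level of at least 10 went the other way, with 23.3% to 28.8% of 733 above 0 in libraries 56 to 62 and 64.4% to 75.4% in the others. Of the 3435 genes under 200 bases in no host, 9.20% to 13.6% were above 0 in libraries 56 to 62 and 16.3% to 20.5% in the others. The part of strand assignment in these values was not tested.

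**Figure D5:**
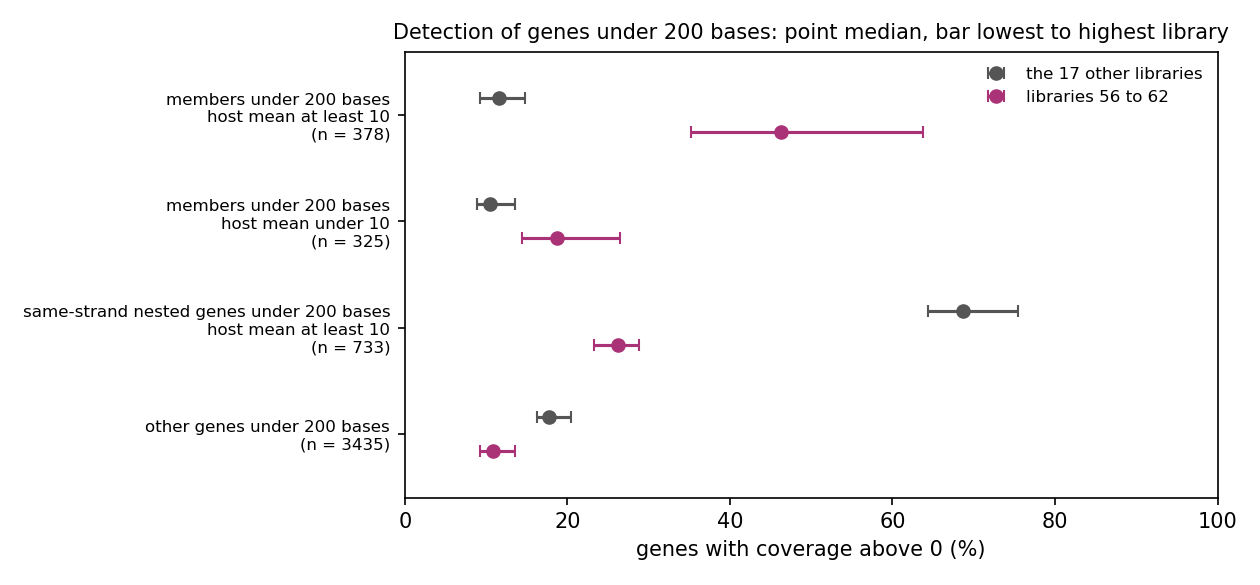
Percent of genes under 200 bases with coverage above 0 in libraries 56 to 62 (purple) and the 17 others (grey), with points for the median library and bars from the lowest to the highest library, for short genes in opposite-strand hosts (n = 378 and 325 by host level), in same-strand hosts (n = 733) and in no host (n = 3435). Nested genes in opposite-strand hosts are detected more often in libraries 56 to 62 (median 46.3% against 11.6%), and those in same-strand hosts less often (26.2% against 68.6%).

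In the second pattern all 7 libraries from 56 to 62 lay below all 17 others. This held for 20 nested genes (1.23%), beside 1.31% of all reference genes, 8.71% of genes in same-strand hosts and 0.850% of genes in no host. All 20 lay on the plus strand and none on the minus strand. Among the genes in same-strand hosts with this pattern, 96 were on the plus and 62 on the minus strand, and among those in no host 159 and 91. The 20 genes lay in 14 hosts, and 16 were under 200 bases.

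Of these 20 genes, 7 loci of 49 to 57 bases were by far the highest. AABR07015055.2, AABR07015056.1, AABR07015067.2, AABR07015080.1 and AABR07015081.1 are listed between positions 46525123 and 46655398 of chromosome 14, and AABR07063425.1 and AABR07063425.2 between positions 30640660 and 30641173 of chromosome 6, on the build of the tables. AABR07015081.1 had 4287 to 9713 in the 17 other libraries and 0.626 to 3.78 in libraries 56 to 62. AABR07063425.1 had 4403 to 9055 against 0.626 to 3.73. AABR07015056.1 had 3540 to 8236 against 0.856 to 4.31. The shortest, AABR07015055.2 and AABR07015080.1 of 49 bases, had 735 to 1775 and 755 to 2048 against 0.0762 to 0.798 and 0.0762 to 0.604. The lowest value of 0.626 is the same in 3 of the loci, and near-identical copies can share reads, so these values are uncertain. All 7 were called lower in Low against Control, with log2 differences between -7.15 and -6.00 (SE 1.54 to 1.84, limma adjusted p between 0.0206 and 0.0321). None of the 7 was called with the covariate, and AABR07015056.1 turned to 0.26.

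The hosts of these loci, on the minus strand, stayed high in all libraries with 1 exception. AABR07015057.1 had 7373 to 9960 in libraries 56 to 62 and 4942 to 10846 in the others. AABR07015067.1, the host of AABR07015067.2, went the other way from its nested gene, with 164 to 892 in libraries 56 to 62 and 5.85 to 83.2 in the others. A neighbouring member, AABR07015078.2, chosen after its values were seen, lies on the minus strand inside AABR07015078.1 on the plus strand. It had 2331 to 5062 in libraries 56 to 62 and 2080 to 5196 in the others, whereas its plus-strand host had 197 to 427 against 738 to 1786.

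These loci weighed on the summed coverage of the nested genes. Nested genes took up 4.00% to 6.23% of all reference coverage in the 17 other libraries and 1.56% to 1.92% in libraries 56 to 62. The 7 loci alone made up 2.43% to 4.36% in the 17 others and at most 0.00202% in libraries 56 to 62. Without them the share was 1.48% to 1.87% and 1.56% to 1.92%. By group, the share with the loci was 4.53% ± 1.25 (SD, n = 8) for Control, 2.54% ± 1.39 (SD, n = 8) for Low and 4.67% ± 0.50 (SD, n = 8) for High. Without the loci it was 1.68% ± 0.16 (SD, n = 8), 1.75% ± 0.14 (SD, n = 8) and 1.63% ± 0.06 (SD, n = 8). Low then no longer lay below Control, and the small difference between them was within these SDs. The ranges overlapped, with 1.48% to 1.91% for Control and 1.56% to 1.92% for Low.

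The remaining 13 genes of this pattern were lower in level. Mir3546, whose sequence is printed above, had 1.82 to 12.04 in the 17 others and was listed at 0 in libraries 56 to 62, and AC115371.1 in the same host had 2.61 to 7.37 against 0 to 0.463. Their host Myh6 had 2.78 to 5.68 in libraries 56 to 62 and 1.06 to 2.79 in the others, opposite to its nested genes. Mir3546 had a log2 difference of -1.89 in Low against High (SE 0.55, limma adjusted p = 0.0261), and 0.46 with the covariate (limma adjusted p = 0.548). AC120262.1 in Zfp629 had 30.6 to 58.5 against 0 to 1.73, and AC095947.1 in Cct6b had 14.6 to 30.03 against 0 to 1.99. Smim18, the gene of a small membrane protein inside the transcription factor gene Gtf2e2, had 11.6 to 26.5 against 7.91 to 10.3, and was called in Low against Control (-0.60, SE 0.15, limma adjusted p = 0.0201) but not with the covariate (-0.21, limma adjusted p = 0.707). Another 3 lay in Znfx1.

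In the third pattern all 8 Low libraries lay below all 16 Control and High libraries. This held for 12 nested genes (0.740%), beside 1.06% of all reference genes, 6.18% of genes in same-strand hosts and 0.758% of genes in no host. In no nested gene did all 8 Low libraries lie above the 16 others, beside 0.00608% of all reference genes. The 12 genes had a median length of 5826.5 bases and none was under 200 bases. In 7 of them the median in Low was 0. Of the 12, 9 had a mean of at least 1, and all 9 were called in both Low comparisons, also with the covariate in Low against Control. These calls follow from how the 12 were chosen and are a description.

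Pigc, which encodes a subunit of the enzyme that starts the making of glycosylphosphatidylinositol anchors, had 14.3 to 22.4 (median 20.1) over Control rats, 5.68 to 7.79 (median 7.17) over Low rats and 16.2 to 21.2 (median 17.99) over High rats. The Low rats lay below all others with no overlap. The log2 difference was -1.37 against Control (SE 0.08, limma adjusted p = 4.48e-13) and -1.27 against High (SE 0.08, limma adjusted p = 2.5e-12), and it was -1.37 against Control with the covariate (limma adjusted p = 2.83e-10). Its host RGD1309106 had a mean of 0.0988 and was not tested.

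LOC100365839, inside the adhesion gene Lpp, had 54.0 to 73.2 for Control, 36.8 to 48.2 for Low and 54.4 to 70.8 for High, with a log2 difference of -0.57 between Low and Control (SE 0.07, limma adjusted p = 1.66e-06). AABR07004894.1, inside the membrane-shaping gene Fchsd2, had 1.69 to 3.08, 0.305 to 1.65 and 1.71 to 3.81, with a log2 difference of -0.89 (SE 0.14, limma adjusted p = 7.6e-05). These 2 and Pigc were the called genes of the pattern with coverage in every Low library.

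The other called genes of the pattern were at or near 0 in Low. LOC100910418, inside the ankyrin gene Ank1, had 10.9 to 21.8 in Control and 14.4 to 24.5 in High and was listed at 0 in all 8 Low libraries. AABR07072362.1 in Ccdc18 (8.25 to 9.91 in Control), AABR07066792.1 in Bicral (5.56 to 10.6) and LOC103692570 in AABR07063281.1 (3.59 to 12.8) were likewise listed at 0 in all Low libraries. AABR07060678.1 in Fam13a had 9.75 to 11.4 in Control and 0 to 0.218 in Low. AABR07009787.1 in Spata16, a gene of the testis, had 28.6 to 41.0 for Control, 0 to 1.03 for Low and 33.2 to 38.7 for High. For all 12 genes of the pattern the difference follows the tables without assembled loci, so that group and table cannot be told apart.

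Further called genes followed none of the 3 patterns. Some kept their call in Low against Control with the covariate. Among them were AC141517.1 in Rdh13 (-3.14, limma adjusted p = 1.3e-05) and AC122968.1 in Scn9a (-1.54, limma adjusted p = 0.000113). AC141517.1 had 0 to 9.82 (median 0) for Low and a median of 9.10 for Control. For these too, group and table cannot be told apart. The 3 genes described next lost their call. Cmc2, the gene of a mitochondrial assembly protein inside Cenpn, had 15.53 to 32.7 for Control, 8.68 to 19.2 for Low and 15.9 to 26.9 for High, and was called in Low against Control (-0.53, SE 0.16, limma adjusted p = 0.0421) but not with the covariate (-0.30, limma adjusted p = 0.65). Gpr22, an orphan receptor gene inside the Golgi gene Cog5, had 16.1 to 22.4 for Low and 9.13 to 19.6 for High, and was called in Low against High (0.41, SE 0.11, limma adjusted p = 0.0142) but not with the covariate (0.40, limma adjusted p = 0.262). Mir6318 in Elmo3 had 0 to 4.99 for Low and 0.344 to 6.60 for High, and was called in Low against High (-1.62, SE 0.39, limma adjusted p = 0.00692) but not with the covariate (-0.36, limma adjusted p = 0.687). The groups overlapped for Cmc2, Gpr22 and Mir6318.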

How the data were processed

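The authors made stranded mRNA libraries from 24 frontal cortices and deposited 1 gene abundance table per rat. The submitters' notes name FastQC, Trimmomatic, TopHat2 and StringTie, without versions, and the build mRatBN7.2. The positions reach 282724300 on chromosome 1, which is past the length of that chromosome in mRatBN7.2. The listed positions are therefore not on that build. Which build they are on was not settled, and positions are given as listed. The deposited coverage is an unscaled signal, the mean read depth per base, and the deposited FPKM is scaled per kilobase and by library size by the authors' program. TPM was not used, and the sources used here give no strand options.

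Members were found by their listed start, end, strand and chromosome. A gene listed on several entries was tested entry by entry, and its coverage was summed (34 genes in library 49). Each member's host is the shortest opposite-strand gene around it. There were 1602 members with 1 host, 17 with 2 and 2 with 3. Coverage was divided by the library's sum over reference genes and put on a scale of 1000000 per library. Genes whose mean reached 1 were tested with limma 3.58.1 (trend, robust) in R 4.3.3 on log2(value + 1), two-sided, all 3 groups in 1 fit, with Benjamini-Hochberg adjustment and a threshold of 0.05. Tables were handled with Python 3.11.15 and pandas 2.3.3. The scripts were tested on simulated data. Depth is unknown because no counts are held, so no counting interval is given.

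The members, lists and patterns were chosen with earlier results of these data known. Named genes are known nested pairs, the 12 symbols with the highest level, the 5 largest increases and decreases per comparison, the 3 highest and lowest ratios and correlations, and genes said to be chosen after their values were seen. The marker lists were written from general knowledge. Alternatives were the pseudocount, the filter, the scaling, FPKM, the exact Wilcoxon test, only the groups compared, each rat left out, and libraries 56 to 62 left out or as a covariate. Sequences are from RefSeq GRCr8.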

Additional observations from a re-analysis of the deposited data

Results flagged for a closer look

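In groups of 8 rats, 36 of 178 sets of values held a library whose gap to the nearest other exceeded Dixon's limit. Chance flags about 1 in 20 sets, but many of these genes were named because libraries 56 to 62 stand apart, so the number cannot be read against chance, and flags of library 56 in those genes follow from that choice. Library 56 was the one apart in 14 of them and library 49 in 4. The causes were not tested. In Control, library 56 was far below the other 7 for AABR07015067.2 (1.93), AABR07063425.2 (1.75) and AABR07015056.1 (2.02). It was far above them for 5S_rRNA ENSRNOG00000044610 (4.36), U6 ENSRNOG00000059821 (4.89), AC114111.2 (7.98), AC135310.2 (12.7), U4 ENSRNOG00000061167 (10.7), AC118414.1 (5.25), ENSRNOG00000049599 (5.97), Mir3065 (2.24), Mir126a (2.91), Msmp (17.7) and Timp1 (11.2). The other libraries of the Control group lay at 2.16 to 5.08 for Msmp and at 3.76 to 6.38 for Timp1.

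Some of these short genes also had a single High library above the other 7: 5S_rRNA ENSRNOG00000044610 in library 69 (2.26), U6 ENSRNOG00000059821 in library 67 (0.647), AC114111.2 in library 65 (0.443), AC135310.2 in library 72 (1.02) and U4 ENSRNOG00000061167 in library 71 (0.496).

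Library 49 stood apart in Control with high levels of Cox7a2l2 (433) and Atp5md (320), a low level of LOC100910418 (10.9) and AABR07020999.1 listed at 0, where the other Control libraries had 7.16 to 13.6. Other Control libraries apart were library 55 for Fndc9 (6.91) and library 51 for Pigc (14.3) and for the summed reference coverage (2.82, in units of 1000000).

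In Low, library 57 was above the other 7 for Fth1 (2195) and Cox7a2l2 (498), library 59 for Timp1 (8.13), library 62 for Pea15 (419) and AABR07030375.2 (0.316), and library 63 for Mir6318 (4.99). Library 61 was below the other 7 for Evi2b (0.981) and Nap1l5 (175). Library 60 had the highest summed reference coverage (3.07 in the same units). In High, library 67 was above the other 7 for AABR07004894.1 (3.81).

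The differences of Low and of High from Control themselves differed, by limma's Low against High contrast, in 92 of the 415 tested nested genes. In the same contrast 1828 of all 15644 tested genes (11.7%) were called. With libraries 56 to 62 as a covariate, 19 nested genes and 2.26% of all tested genes were called.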

How the results depend on the processing

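The number of nested genes called in Low against Control was 56, and it became 98 with no filter on low values, 25 with a minimum mean of 5, 242 with FPKM, 24 with only the groups compared, 16 with the exact Wilcoxon rank-sum test, 19 without libraries 56 to 62 and 20 with them as a covariate. In Low against High it was 92, and became 154, 38, 248, 44 (Wilcoxon), 20 and 19, while only the groups compared stayed within 1.5 times. Leaving out each rat gave 38 to 71 and 68 to 106. In the main fit 6.11% and 11.7% of all tested genes were called. With FPKM 12393 and 12410 of all 13816 tested genes were called. Shares over all genes are not given for the changed filters, the Wilcoxon test, only the groups compared or each rat left out. These counts show how the number depends on the setting and are no result about nested genes. High against Control stayed at 0 called in every setting run. FPKM shifted the median of all genes by 0.53 and 0.52, and no scaling shifted it by -0.12 in Low against High; the cause was not tested.

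Without libraries 56 to 62 or with them as a covariate, AABR07015056.1 turned to 0.44 and 0.26 in Low against Control and to 0.49 and 0.36 in Low against High. In Low against High, AABR07015067.2 turned to 0.0914 and 0.0774, AABR07063425.2 to 0.051 and 0.0404, and the U4 copy ENSRNOG00000061167 to -0.0304 with the covariate. The Low minus Control ratio of nested gene to host (-0.24) was -0.0728 with a minimum mean of 5 and -0.27 to -0.19 with each rat left out, and the High minus Control ratio was 0.02 to 0.10. The median correlation was 0.0443 under median-of-ratios scaling. The difference in the share of reference coverage between Low and Control, -1.99 percentage points, was 0.0739 without the 7 loci, 0.0615 without nested genes under 200 bases and -0.13 without libraries 56 to 62. These last 3, and the joining of entries of split genes (57 and 93 called), were chosen after seeing the data.

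No paired analysis was possible because the groups share no replicate numbers. With no read counts, it is unknown how few reads lie behind the low levels, and levels of short genes rest on few bases.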
